A study of Mus musculus with 8 samples.

Results

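The collagen genes of mouse liver were described in samples of a rilpivirine group and of a control group. Members were the probe sets of the deposited expression table whose only platform gene symbol had the form of a collagen chain gene (Col, a type number, the letter a and a chain number). For each symbol the probe set with the highest mean over the 8 arrays was used. This gave 44 collagen genes among 22180 genes with a symbol of their own: 11 fibrillar, 6 of the basement membrane type, 6 beaded and 21 of other classes. The rilpivirine group (n = 4) was labelled non-alcoholic fatty liver disease plus rilpivirine, an inhibitor of HIV reverse transcriptase given by mouth each day at a dose matched to that of patients. The control group (n = 4) was labelled non-alcoholic fatty liver disease, without rilpivirine. All samples were liver of wild-type C57BL/6 mice. Normal and high-fat feeding are mentioned in the labels but not assigned to samples, and no age is given. Nothing in the labels ties each array to its own animal, so the tests gauge array-to-array variation that could be partly technical. The comparison asks whether liver transcripts of the collagen family differed with rilpivirine in fatty liver.

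Collagens are the main structural proteins of the extracellular matrix, built from chains that wind into a triple helix. In a healthy liver, fibrillar collagens surround vessels and bile ducts, while a thin matrix with basement membrane collagens lies in the space between hepatocytes and the sinusoids. Stellate cells and portal fibroblasts make most of the fibrillar collagen that accumulates in fibrosis, and fatty liver disease is a setting in which such fibrosis can develop. Chains are hydroxylated, folded and assembled in the endoplasmic reticulum, exported in large carriers, trimmed by propeptidases and crosslinked outside the cell.

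The arrays were single-channel Affymetrix whole-transcript arrays, and values are log2 expression after RMA, so a difference of 1 is a doubling. Array medians lay between 3.33 and 3.45, and no pair of arrays was identical. Rilpivirine replicate 2 stood apart, with a mean correlation with the other arrays of 0.965, against 0.976 to 0.981 for the rest. Over 75 probe sets of small nucleolar RNAs the deviation from the mean of the 8 arrays was highest in rilpivirine replicate 2 (0.49 log2) and lowest in control replicate 1 (-0.60), with -0.20 to 0.27 in the others. The part of this in the values that follow was not tested. Of the hepatocyte markers Alb, serum albumin, was the brightest, at 13.26 to 13.37 with rilpivirine and 13.22 to 13.27 in controls, and Ass1, a urea cycle enzyme, the dimmest, with a mean of 4.75 over the 8 arrays. Probe sets differ in how brightly they report a transcript, so the low Ass1 value is not read as little mRNA. All 10 hepatocyte markers, 13 of 14 stellate cell markers and all 10 sinusoidal endothelial markers were measured. In bulk tissue, fewer cells of a type and less RNA per cell cannot be told apart.

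Start-site sequences were available in RefSeq (GRCm38.p6) for 35 of the 44 genes, in 38 windows. The 250 bases before the start of Col1a2 and Col3a1 are shown because both genes correlated with Col1a1 between samples, as given further on. Capitals mark matches to the CCAAT motif, to GGGCGG (the GC box), and to TATAAA (the TATA box), searched on both strands.
Col1a2, chr6:4505368-4505617, plus strand: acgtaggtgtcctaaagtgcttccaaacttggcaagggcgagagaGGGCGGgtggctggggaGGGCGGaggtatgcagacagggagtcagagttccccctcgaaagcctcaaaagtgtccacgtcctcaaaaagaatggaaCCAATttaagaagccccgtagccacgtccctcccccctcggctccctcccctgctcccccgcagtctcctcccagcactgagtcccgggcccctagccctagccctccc
Col3a1, chr1:45311288-45311537, plus strand: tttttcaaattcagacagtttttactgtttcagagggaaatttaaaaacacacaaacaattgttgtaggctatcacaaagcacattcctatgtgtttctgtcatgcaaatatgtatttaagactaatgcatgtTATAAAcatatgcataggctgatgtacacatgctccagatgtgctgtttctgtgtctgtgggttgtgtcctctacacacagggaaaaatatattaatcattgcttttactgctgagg
In the Col1a2 window CCAAT begins 109 bases before the start and GGGCGG begins 205 and 188 bases before it. In the Col3a1 window TATAAA begins 117 bases before the start. The Col4a1 and Col4a2 genes lie head to head, and their annotated 5′ ends overlap by the 22 bases shown, which carry GGGCGG in capitals.
Col4a1 and Col4a2, chr8:11312805-11312826, plus strand: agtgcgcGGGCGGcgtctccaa
The starts of Col4a5 and Col4a6, also head to head on the X chromosome, lie 1343 bases apart.

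Over the 250 bases before the start, TATAAA occurred in 13.2% of the 38 collagen windows, against 11.6% of 21262 windows of protein-coding genes. CCAAT occurred in 34.2% of the collagen windows, against 35.4% of the protein-coding ones. GGGCGG occurred in 57.9% of the collagen windows, against 42.6% of the protein-coding ones. A match of these letters describes the window only.

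No collagen transcript passed the test between rilpivirine and control livers after adjustment over all genes. Of the 44 collagen genes, all of which passed the filter on dim genes (a mean of at least 2.72 log2), limma called 0 past a Benjamini-Hochberg adjusted p of 0.05, where it called 0 of all 16635 genes tested (0%). The smallest adjusted p of a collagen was 0.890. Before adjustment, 1 collagen (Col6a5) had a limma p under 0.05, a level that 5.21% of all genes tested reached. Col6a5 was also the only member whose groups did not overlap, where this held for 3.04% of all genes tested. The alternative fits tried, which include trended variances, array weights and other scalings, called 0 collagens each after adjustment. All 44 confidence intervals (95%, from limma) lay within a 2-fold change in either direction, against 96.8% of the intervals over all genes tested, and 35 of the 44 lay within 1.5-fold. The intervals of the family ran from -0.70 to 0.72 log2, and the differences themselves from -0.33 to 0.25. Of the 44 genes, 31 had a mean under 5 log2, and no background signal is known for them. For such dim genes an interval bounds the measured difference and not the change in mRNA.

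**Figure D1:**
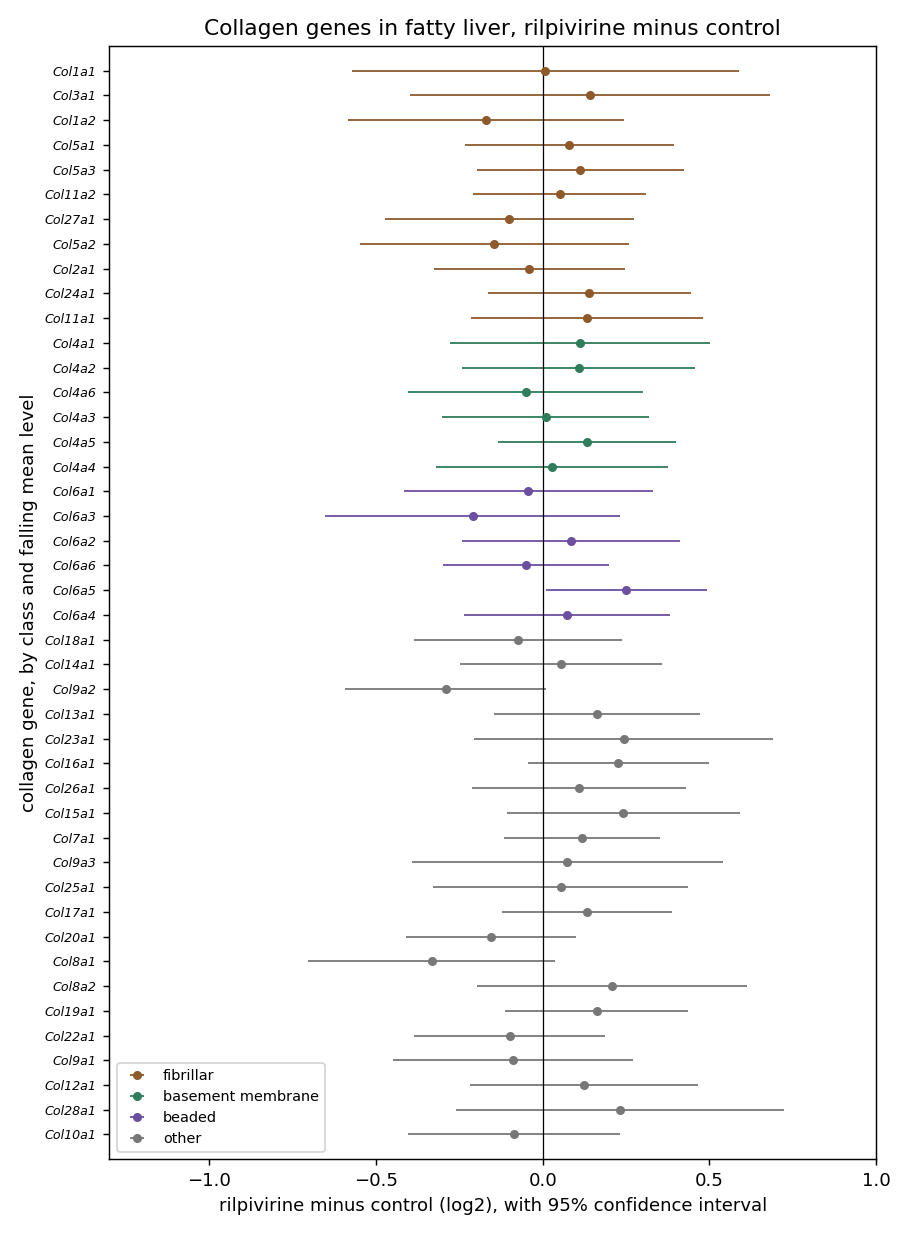
Difference between rilpivirine and control (log2, horizontal axis) for the 44 collagen genes (vertical axis, by class and falling mean level), as points with 95% confidence intervals from limma, n = 4 each. The points lie between -0.33 and 0.25, and the interval of Col6a5 alone leaves out 0.

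Of the 44 collagens, 29 had a mean above that of controls and 15 a mean below it, with a median difference of 0.07 log2. Over all genes tested 43.1% had a mean above that of controls and the median was -0.03. That share differed by level: it was 52.0% of all tested genes with a mean under 5 log2 (median 0.01). Among all tested genes with a mean of 5 log2 or more it was 31.9% (median -0.08). Without rilpivirine replicate 2, 22 collagens were on the higher side and 22 on the lower, with a median of 0.01. That shift lay in the 31 collagens with a mean under 5 log2, of which 14 were on the higher side without that array and 21 with it. Of the 13 collagens with a mean of 5 log2 or more, 8 were on the higher side both without and with it, with medians of 0.08 and 0.06. Without rilpivirine replicates 1 and 2 together, 17 were on the higher side, with a median of -0.03. Rilpivirine replicate 2 was the highest of the 8 arrays in 15 of the 31 collagens with a mean under 5 log2, and in 27.4% of all tested genes with such a mean. In the 13 collagens with a mean of 5 log2 or more it was the highest in 1.

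Probe sets differ in how brightly they report a transcript, so levels are given per gene and are not ranked as amounts of mRNA. By class, 4 of 11 fibrillar genes, 2 of 6 basement membrane genes, 3 of 6 beaded genes and 4 of the 21 others had a mean of at least 5 log2. The lowest mean of the family was that of Col10a1, a collagen of growth plate cartilage, at 2.77 log2, just above the filter value.

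Among fibrillar collagens, which form the tensile fibres of interstitial matrix, 7 of 11 had a higher mean with rilpivirine and 4 a lower mean, with a median difference of 0.05 log2. Col1a1, a chain of type I collagen, measured 6.60, 6.14, 6.58 and 7.13 log2 in rilpivirine replicates 1 to 4, against 7.27, 6.75, 6.21 and 6.18 in control replicates 1 to 4. The groups overlapped over nearly their whole range, with rilpivirine replicate 4 and control replicate 1 high. The fold of rilpivirine over control was 1.005 (95% confidence interval 0.672 to 1.503). Col1a2, the other chain of type I, measured 6.03, 5.48, 5.63 and 6.13 with rilpivirine, against 6.25, 6.21, 5.87 and 5.61 in controls. The difference was -0.17 ± 0.19 log2 (SE), smaller than its error.

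Col3a1, the chain of type III collagen, which is laid down with type I, measured 6.54, 6.18, 6.28 and 7.31 with rilpivirine, against 6.74, 6.69, 6.19 and 6.12 in controls. Rilpivirine replicate 4 was the highest of the 8 and 3 rilpivirine samples lay within the range of the controls. The difference of 0.14 ± 0.24 log2 (SE) became -0.10 without that sample, and that of Col1a1 became -0.17. Col5a1 and Col5a2 encode chains of type V collagen, which sets fibril diameter. Col5a1 averaged 5.55 ± 0.21 log2 with rilpivirine and 5.47 ± 0.19 in the control group (SD, n = 4 each). Col5a2 averaged 4.27 ± 0.34 with rilpivirine and 4.42 ± 0.24 in the control group (SD, n = 4 each). The remaining 6 fibrillar genes had differences between -0.10 and 0.14.

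Beside the fibrillar genes, 4 of 13 stellate cell markers had a higher mean with rilpivirine, against 43.1% of all genes tested. The median difference of these markers was -0.09 log2. Their summed level ran from 81.9 to 84.3 with rilpivirine and from 83.0 to 84.3 in controls, and their median deviation from the mean of the 8 arrays from -0.16 to -0.05 with rilpivirine and from 0.04 to 0.08 in controls. Cygb, the cytoglobin of stellate cells, is named after its values were seen, as the marker of this list that alone had an unadjusted p under 0.05 in limma (limma adjusted p = 0.813). It had a difference of -0.33 ± 0.10 (SE) and measured 7.26, 7.30, 7.34 and 7.44 with rilpivirine, against 7.72, 7.63, 7.62 and 7.71 in controls, with all rilpivirine samples below all controls. An unadjusted limma p under 0.05 was reached by 5.21% of all genes tested, and the groups did not overlap in 3.04%. Acta2, the smooth muscle actin of activated stellate cells, measured 6.75, 6.48, 6.24 and 6.95 with rilpivirine and 6.61, 6.33, 6.64 and 6.41 in controls, highest in rilpivirine replicate 4. The part of these cells in the collagen values was not tested.

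**Figure D2:**
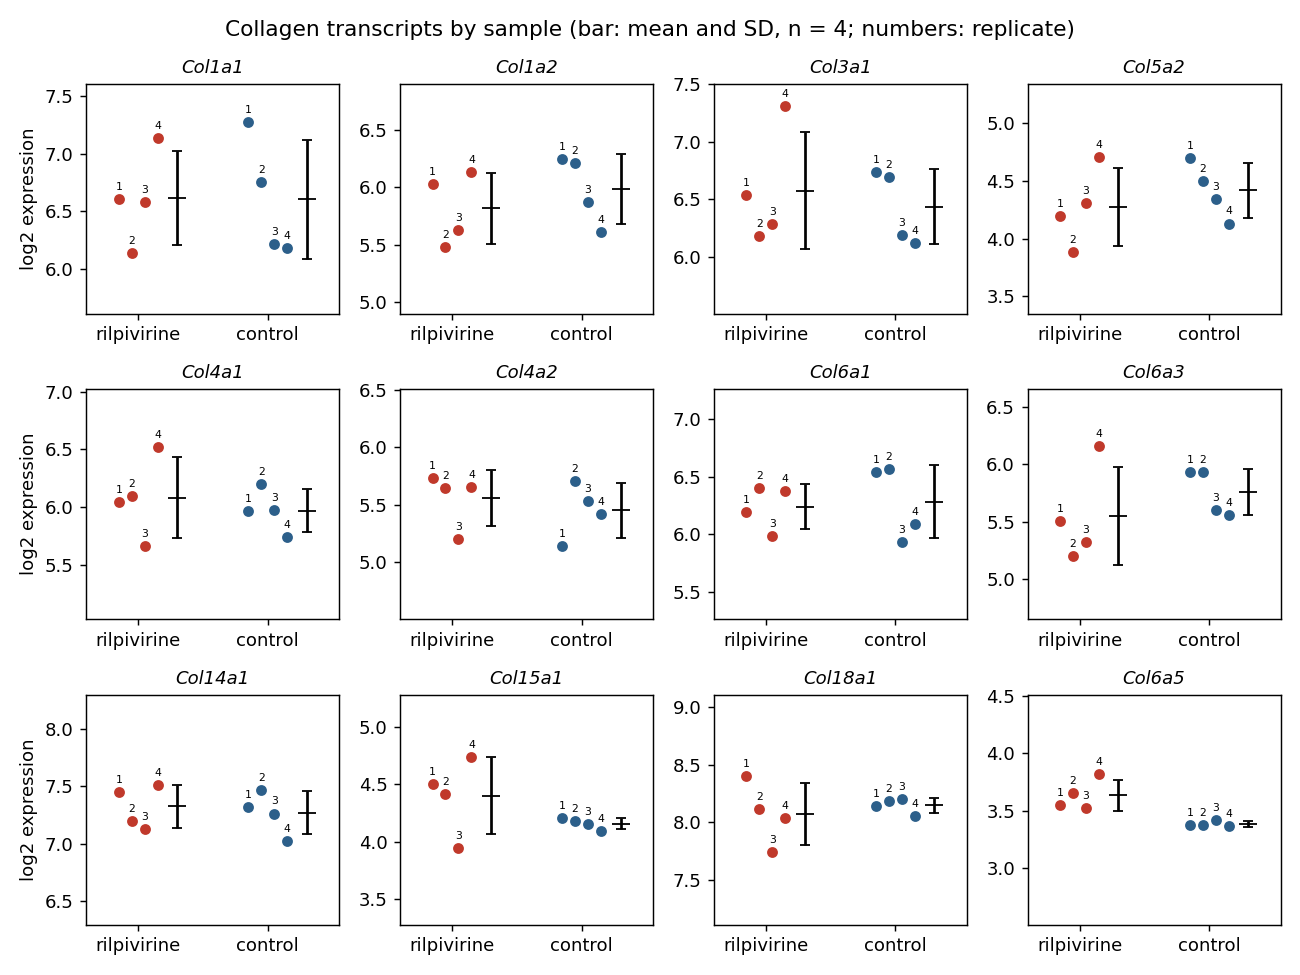
Log2 expression (vertical axis, a span of 2 log2 in each panel) of 12 collagen genes in the 4 rilpivirine samples (red, left) and the 4 control samples (blue, right), numbered by replicate, with mean and SD. Col1a1 reaches 7.13 in rilpivirine replicate 4 and 7.27 in control replicate 1, and only in Col6a5 do the groups stand apart.

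Basement membrane collagens form the sheet-like type IV network; 5 of 6 had a higher mean with rilpivirine and 1 a lower mean, with a median difference of 0.07 log2. Col4a1 and Col4a2, whose start sites are shown above, encode the chains of the network found in all basement membranes. Col4a1 measured 6.04, 6.09, 5.66 and 6.52 log2 with rilpivirine, against 5.97, 6.20, 5.97 and 5.74 in controls. The difference was 0.11 ± 0.18 (SE). Col4a2 measured 5.74, 5.64, 5.20 and 5.65 with rilpivirine, against 5.14, 5.71, 5.53 and 5.42 in controls. The difference was 0.11 ± 0.16 (SE), and in both genes the groups overlapped. Without control replicate 1 the difference of Col4a2 was 0.0045, and without rilpivirine replicate 4 that of Col4a1 was -0.04. Rilpivirine replicate 3 was the lowest sample for Col4a1, and control replicate 1 for Col4a2.

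Col4a3, Col4a4, Col4a5 and Col4a6 encode the chains of more specialised basement membranes. They were dim here, with means of 2.85 to 3.62 log2 over the 8 arrays and differences of 0.01, 0.03, 0.13 and -0.05. Sinusoidal endothelial markers stood beside these values: 10 of 10 had a higher mean with rilpivirine, with a median difference of 0.27. Over all genes tested 43.1% had a higher mean. Limma gave 3 of the 10 an unadjusted p under 0.05, a level that 5.21% of all genes tested reached, and called 0 genes after adjustment. The sum of the log2 values of the 10 ran from 77.3 to 81.6 with rilpivirine and from 75.4 to 79.3 in controls. Their median deviation from the mean of the 8 arrays was 0.31, 0.30, 0.11 and -0.16 in rilpivirine replicates 1 to 4. In control replicates 1 to 4 it was -0.41, -0.05, 0.04 and -0.14. Rilpivirine replicate 4 thus lay below control replicates 2, 3 and 4, and control replicate 1 was the lowest. Of 6 large-vessel endothelial markers 3 had a higher mean, with a median difference of 0.03. The part of endothelial cells in the type IV values was not tested.

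Beaded collagens, the type VI chains that form microfilaments between cells and fibres, had 3 of 6 members with a higher mean and 3 with a lower mean, and a median difference of 0.02 log2. Col6a1, a core chain of type VI, measured 6.20, 6.41, 5.98 and 6.38 with rilpivirine, against 6.54, 6.57, 5.94 and 6.09 in controls. The groups overlapped fully and the difference was -0.04 ± 0.17 (SE). Col6a2, its partner chain, had a difference of 0.08 ± 0.15 (SE).

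Col6a3, the largest of the core type VI chains, measured 5.50, 5.20, 5.32 and 6.16 with rilpivirine, against 5.93, 5.93, 5.60 and 5.56 in controls. Here 3 rilpivirine samples lay below all 4 controls and rilpivirine replicate 4 lay above them. The difference was -0.21 ± 0.20 (SE), and -0.41 without rilpivirine replicate 4 (limma adjusted p = 0.531). Col6a5 and Col6a6 encode chains related to that of Col6a3. Col6a5 measured 3.55, 3.65, 3.52 and 3.81 with rilpivirine, against 3.37, 3.37, 3.42 and 3.37 in controls. All rilpivirine samples lay above all controls, at a level close to the filter value. The difference was 0.25 ± 0.11 (SE; limma unadjusted p = 0.0427, adjusted p = 0.890), and over its alternatives the limma adjusted p ran from 0.584 to 0.999. Col6a6 measured 4.27 ± 0.15 with rilpivirine and 4.32 ± 0.04 in the control group (SD, n = 4 each).

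Of the 21 other collagens, 14 had a higher mean with rilpivirine and 7 a lower mean, with a median difference of 0.11 log2. Without rilpivirine replicate 2 that median was -0.01. The multiplexins Col18a1 and Col15a1 encode basement membrane proteoglycans whose ends can be released as inhibitors of vessel growth, and hepatocytes are a known source of Col18a1. Col18a1 measured 8.40, 8.11, 7.74 and 8.04 with rilpivirine, against 8.15, 8.19, 8.20 and 8.06 in controls. The controls lay close together inside the range of the rilpivirine samples, and the difference was -0.07 ± 0.14 (SE). Col15a1 measured 4.50, 4.41, 3.95 and 4.74 with rilpivirine, against 4.20, 4.18, 4.16 and 4.09 in controls. Here 3 rilpivirine samples lay above every control and replicate 3 below every control. The difference was 0.24 ± 0.16 (SE; limma adjusted p = 0.890), and 0.39 without rilpivirine replicate 3 (limma adjusted p = 0.636).

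FACIT collagens attach to the surface of fibrils; 5 of 9 had a higher mean with rilpivirine and 4 a lower mean. Col14a1, a fibril-associated chain, had a level of 7.32 ± 0.19 with rilpivirine, against 7.27 ± 0.19 in the control group (SD, n = 4 each). Col9a2, a chain of type IX collagen best known from cartilage, measured 5.71, 5.42, 5.71 and 5.28 with rilpivirine, against 5.65, 5.86, 5.99 and 5.78 in controls. Only control replicate 1 lay within the rilpivirine range, and the difference was -0.29 ± 0.14 (SE; limma adjusted p = 0.890).

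Col8a1 and Col8a2 encode the short chains of type VIII collagen, which forms networks under vessel endothelium. Col8a1 measured 3.85, 3.40, 3.68 and 3.83 with rilpivirine, against 4.24, 4.32, 3.69 and 3.85 in controls. Control replicates 1 and 2 were high, the other samples overlapped, and the difference of -0.33 ± 0.17 (SE) was the largest of the family in size. Col8a2 had a difference of 0.21 ± 0.18 (SE), with 4.44 in rilpivirine replicate 2 against 3.47 to 3.98 in the other rilpivirine samples and 3.55 to 3.83 in controls. The membrane-spanning collagens Col13a1 and Col23a1 had differences of 0.16 ± 0.14 and 0.24 ± 0.20 (SE). All 4 membrane-spanning members had a higher mean with rilpivirine, with differences of 0.05 to 0.24 and overlapping groups.

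Col1a2, Col5a1 and Col6a1 had a second, dimmer probe set. For Col1a2 it averaged 2.19 with rilpivirine and 2.04 in controls, a difference of 0.15 where the brighter probe set gave -0.17. For Col5a1 it averaged 3.12 with rilpivirine and 3.52 in controls, a difference of -0.40 where the brighter gave 0.08. For Col6a1 the second probe set had a difference of -0.22 and the brighter one of -0.04. Col1a2 and Col5a1 thus took opposite signs in their probe sets.

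**Figure D3:**
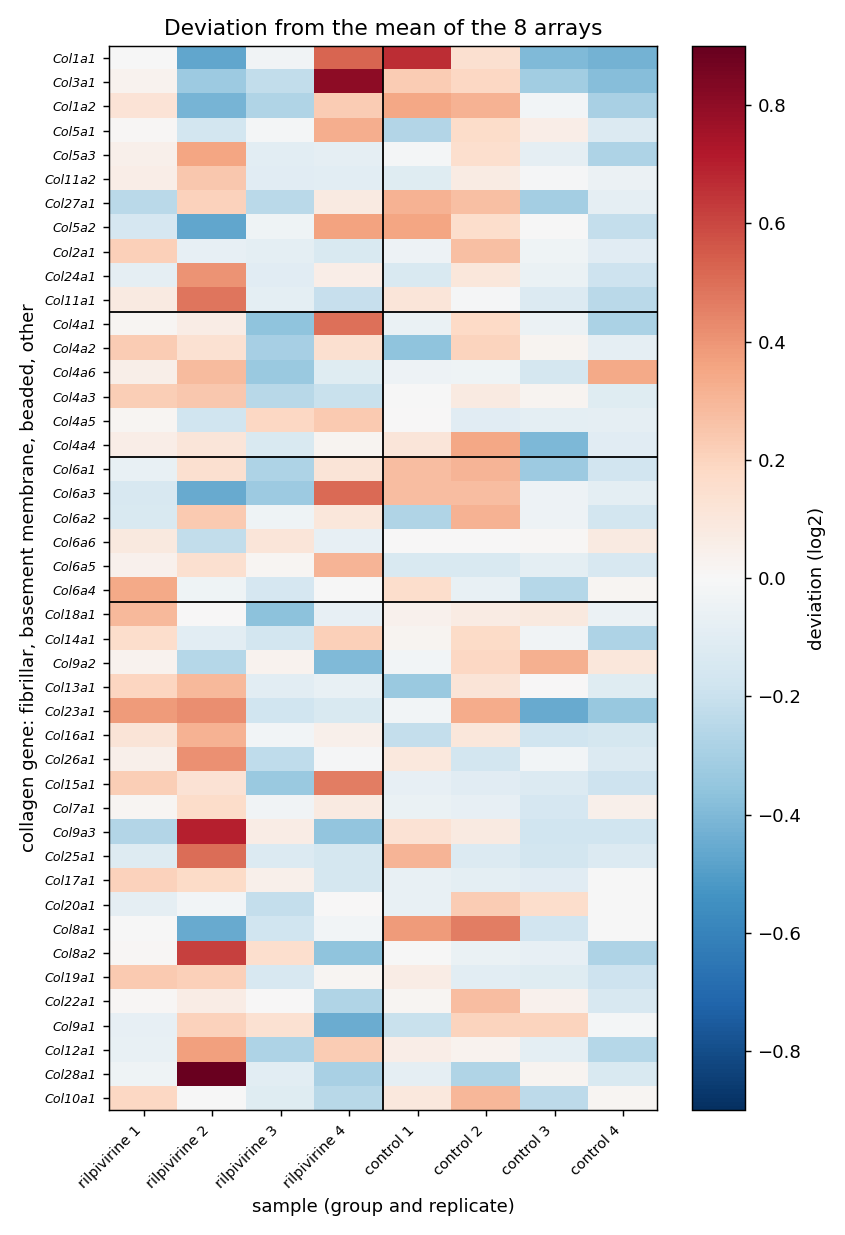
Deviation of each sample from the mean of the 8 arrays (log2, colour) for the 44 collagen genes (rows, by class) in rilpivirine and control samples (columns). Rilpivirine replicate 2 has the highest value in 16 of the 44 genes, mostly dim ones, and rilpivirine replicate 4 in 9.

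The samples of each group differed among themselves. The median deviation of the 11 fibrillar genes from the mean of the 8 arrays was 0.03, -0.07, -0.09 and 0.08 log2 in rilpivirine replicates 1 to 4, against 0.11, 0.16, -0.06 and -0.22 in control replicates 1 to 4. Samples on either side of the mean occurred in both groups. Of the 13 collagens with a mean of at least 5 log2, control replicate 2 and rilpivirine replicate 1 each were lowest in 0. Over all genes tested they were the lowest in 5.96% and 9.68%. Rilpivirine replicate 4 had the highest value of the 8 in 5 of these 13 collagens, and in 16.6% of all genes tested. The 9 markers of portal fibroblasts and smooth muscle had their highest median deviation in the same array, 0.20 in rilpivirine replicate 4, against -0.19 to -0.03 in the other rilpivirine samples and -0.10 to 0.10 in controls. Their part in the collagen levels of that sample was not tested.

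Chains that build a trimer or a fibril together were compared over the 8 samples in 8 pairs. The p-values are from an exact permutation test of the pairings, two-sided, adjusted over the 8 pairs. Other pairs of genes were not correlated, so whether a relation is particular to chains that assemble together was not tested. Col1a1 and Col3a1, of types I and III, moved together: Pearson's r was 0.86 (exact p = 0.00379, adjusted p = 0.0304) and Spearman's rho 0.95 (exact p = 0.00114, adjusted p = 0.00456). Without the samples farthest from the median of Col1a1, rilpivirine replicate 4 and control replicate 1, r was 0.90 (exact p = 0.00417, adjusted p = 0.0333). With group means subtracted r was 0.88 (permutation test p = 0.00327, adjusted p = 0.0262). This p-value is not exact, because values centred within groups cannot be exchanged freely between groups. After adjustment the call on r ended when rilpivirine replicate 1 or 2 or control replicate 2 or 4 was left out, where r was 0.86, 0.85, 0.86 and 0.84 and the adjusted exact p was 0.0873, 0.0905, 0.0706 and 0.106. It also ended after a further quantile normalization (r = 0.83, exact adjusted p = 0.0744). The call on rho held in these settings, with an exact adjusted p of 0.0270, 0.0222, 0.0270 and 0.0222 with those samples left out and of 0.0365 after the normalization.

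Col1a1 and Col1a2, the chains of type I, had r = 0.82 (exact p = 0.0173, adjusted p = 0.0690) and rho = 0.95 (exact p = 0.00114, adjusted p = 0.00456). The rank relation passed the threshold and the linear one did not. Without the samples farthest from the median of Col1a1 r was 0.74 (exact p = 0.101, adjusted p = 0.270) and rho 0.94 (exact adjusted p = 0.0444). The rank call ended after a further quantile normalization (rho = 0.79, exact adjusted p = 0.0980). Col4a1 and Col4a2 had r = 0.64 (exact p = 0.0848, adjusted p = 0.170) and rho = 0.76 (exact p = 0.0368, adjusted p = 0.0980), which missed the threshold after adjustment.

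Col5a1 and Col5a2 had r = 0.41 (exact p = 0.310, adjusted p = 0.407) and rho = 0.48 (exact p = 0.243). This value depended on single samples. Control replicate 1 was the lowest of the 8 for Col5a1, at 5.25, and second to the highest for Col5a2, at 4.70. Without it r was 0.96 (exact adjusted p = 0.00397), and without it and rilpivirine replicate 4, the samples farthest from the median of Col5a1, r was 0.93 (exact p = 0.00972, adjusted p = 0.0389). Control replicate 1 was singled out after its values were seen, so the p-value without it is no support for a relation. Without rilpivirine replicate 4 alone r was 0.08 (exact adjusted p = 0.864). After a further quantile normalization of all 8 samples r was also 0.08 (exact adjusted p = 0.852). Control replicate 1 was also the lowest of the 8 for Col4a2 and Col6a2, at 5.14 and 4.74, and the highest for Col1a1. The dim or uneven pairs gave no call: r was 0.35 for Col4a3 and Col4a4, -0.64 for Col4a5 and Col4a6, 0.37 for Col6a1 and Col6a2 and -0.50 for Col8a1 and Col8a2, with exact adjusted p of 0.407, 0.170, 0.407 and 0.334. For Col6a1 and Col6a2 r was 0.82 without control replicate 1 (exact p = 0.0319, adjusted p = 0.0775) and 0.08 without control replicate 2. The rho values of these pairs were 0.50, -0.48, 0.31 and -0.38, with exact adjusted p of 0.324, 0.324, 0.462 and 0.396. Without the samples farthest from the median of the first gene r was 0.20, -0.39, 0.43 and -0.03. No batch is given for the arrays, and groups of 4 are too small for a correlation of their own, so the values with group means subtracted stand in for it.

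**Figure D4:**
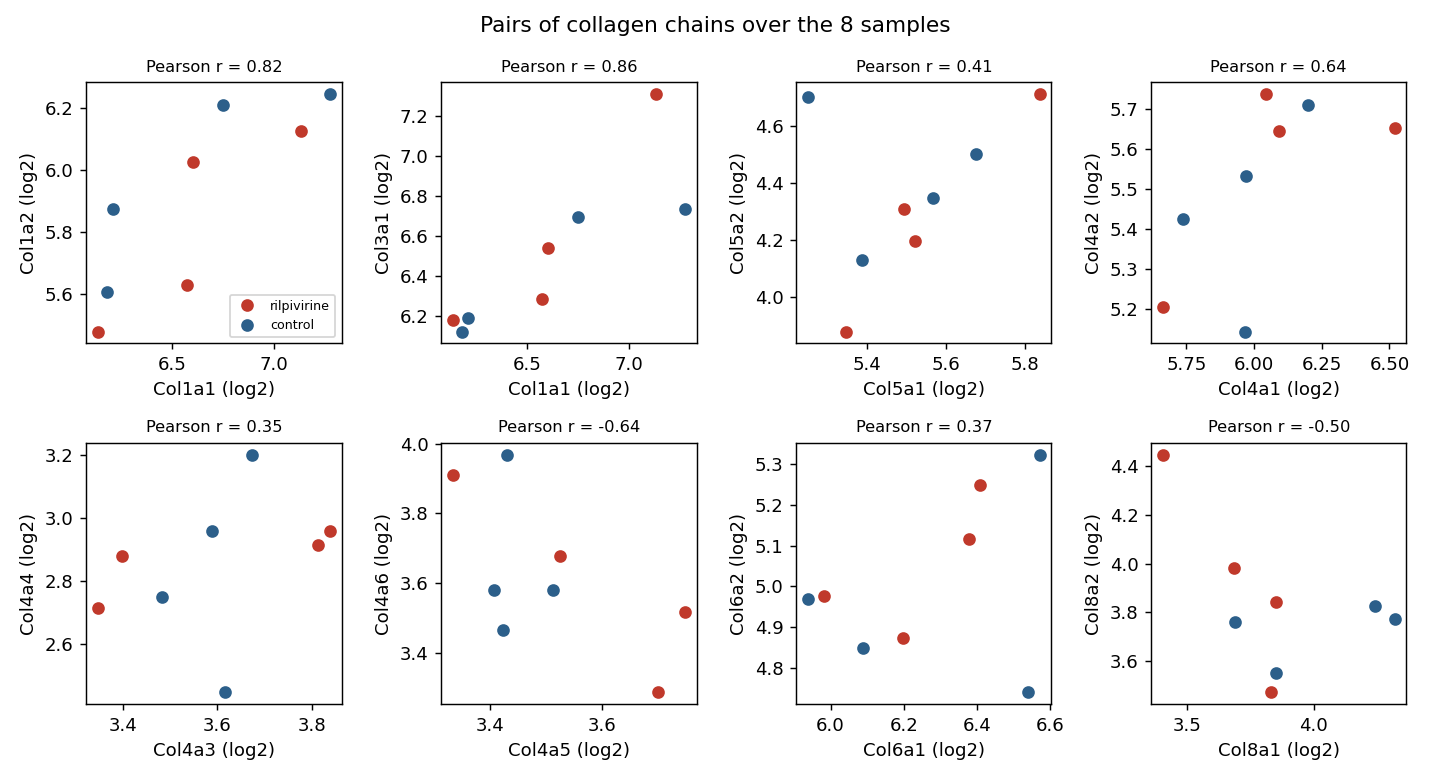
Log2 expression of both genes of 8 pairs of collagen chains (horizontal and vertical axes) in the 4 rilpivirine samples (red) and the 4 control samples (blue). Col1a1 and Col3a1 lie along a line at r = 0.86. For Col5a1 and Col5a2 r was 0.41 over the 8 samples, with control replicate 1 at 5.25 and 4.70.

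Genes that make, export, trim, crosslink and bind collagen were read from the same fit. Of 73 measured, 68 passed the filter, 31 with a higher and 37 with a lower mean with rilpivirine, a median difference of -0.02 log2. Limma called 0 after adjustment. At an unadjusted p under 0.05 it gave 4, with Nid1 and Pxdn higher and Ppib and Podn lower, where 5.21% of all genes tested reached this level.

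In synthesis and folding, 7 of 17 genes had a higher mean and 10 a lower mean, with a median of -0.08 log2. Ppib, the proline isomerase cyclophilin B, measured 9.06, 8.68, 8.94 and 8.89 with rilpivirine, against 9.16, 9.05, 9.26 and 9.25 in controls. Rilpivirine replicate 1 alone reached the control range, and the difference was -0.29 ± 0.12 (SE; limma adjusted p = 0.890). P4hb, the disulfide isomerase that is also a subunit of prolyl 4-hydroxylase, had a difference of -0.25 ± 0.14 (SE). Serpinh1, the collagen chaperone HSP47, averaged 6.38 ± 0.20 with rilpivirine and 6.36 ± 0.18 in the control group (SD, n = 4 each).

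The 8 genes of export from the endoplasmic reticulum had a median difference of -0.25 log2, with 7 lower and 1 higher and 0 at an unadjusted p under 0.05 in limma. Of the 8 export genes, 7 had a mean of 5 log2 or more. Among all tested genes at that level 31.9% had a higher mean, with a median of -0.08. Without rilpivirine replicate 2 that share was 45.2% and that median -0.02. Mia2, which helps load large cargo at exit sites, measured 7.94, 7.90, 8.97 and 8.78 with rilpivirine, against 8.93, 8.29, 8.61 and 9.03 in controls. Rilpivirine replicates 1 and 2 were low and replicates 3 and 4 lay within the control range. Sar1b, a GTPase of the export coat, had a difference of -0.26 ± 0.24 (SE). Without rilpivirine replicate 2 the median of these genes was -0.06, and without rilpivirine replicates 1 and 2 together it was 0.10.

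Propeptide removal had 4 of 6 genes higher and 2 lower, with differences of 0.12 ± 0.13 (SE) for Bmp1, the procollagen C-proteinase, and -0.07 ± 0.12 (SE) for its enhancer Pcolce. Of the crosslinking lysyl oxidases, 2 of 4 were higher and 2 lower. Lox measured 2.89 ± 0.23 with rilpivirine and 2.72 ± 0.20 in controls, near the filter value, and Loxl3 4.86 ± 0.33 with rilpivirine and 4.72 ± 0.03 in the control group (SD, n = 4 each). Loxl1 measured 3.74, 3.84, 4.11 and 4.71 with rilpivirine, against 4.54, 4.53, 3.79 and 3.79 in controls. Its high samples, rilpivirine replicate 4 and control replicates 1 and 2, were also the 3 highest for Col1a1 and for Col3a1.

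Among receptors of collagen 4 of 10 were higher and 6 lower. The discoidin domain receptors Ddr1 and Ddr2, kinases that fibrillar collagen activates, had differences of -0.09 ± 0.17 and -0.22 ± 0.15 (SE), and the integrin chains Itga1 and Itgb1 of -0.01 ± 0.11 and -0.16 ± 0.22 (SE). Of 8 small leucine-rich proteoglycans that passed the filter, which bind fibrils and guide their assembly, 4 were higher and 4 lower. Decorin (Dcn) averaged 9.94 ± 0.30 with rilpivirine and 10.04 ± 0.14 in controls, and biglycan (Bgn) 10.31 ± 0.25 with rilpivirine and 10.23 ± 0.13 in the control group (SD, n = 4 each). Podn, encoding podocan, measured 4.53, 4.04, 4.25 and 4.62 with rilpivirine, against 5.10, 5.03, 4.75 and 4.60 in controls. Only rilpivirine replicate 4 and control replicate 4 overlapped, and the difference was -0.51 ± 0.16 (SE; limma adjusted p = 0.839).

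Of 15 other basement membrane proteins 9 were higher and 6 lower, with a median difference of 0.02 log2. Nid1, the nidogen that joins the laminin and type IV collagen networks, measured 7.72, 7.63, 7.56 and 8.09 with rilpivirine, against 7.34, 7.55, 7.33 and 7.15 in controls. All rilpivirine samples lay above all controls, and the difference was 0.41 ± 0.14 (SE; limma adjusted p = 0.855). Pxdn, the peroxidasin that crosslinks type IV collagen, measured 5.99, 6.07, 5.72 and 5.96 with rilpivirine, against 5.49, 5.89, 5.63 and 5.45 in controls, a difference of 0.32 ± 0.13 (SE; limma adjusted p = 0.890). Rilpivirine replicate 3 lay below control replicate 2 and the other rilpivirine samples above all controls. Hspg2, which encodes perlecan, had a difference of 0.14 ± 0.14 (SE). The sinusoidal endothelial markers given above had higher means in the same direction, and their part in these values was not tested.

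**Figure D5:**
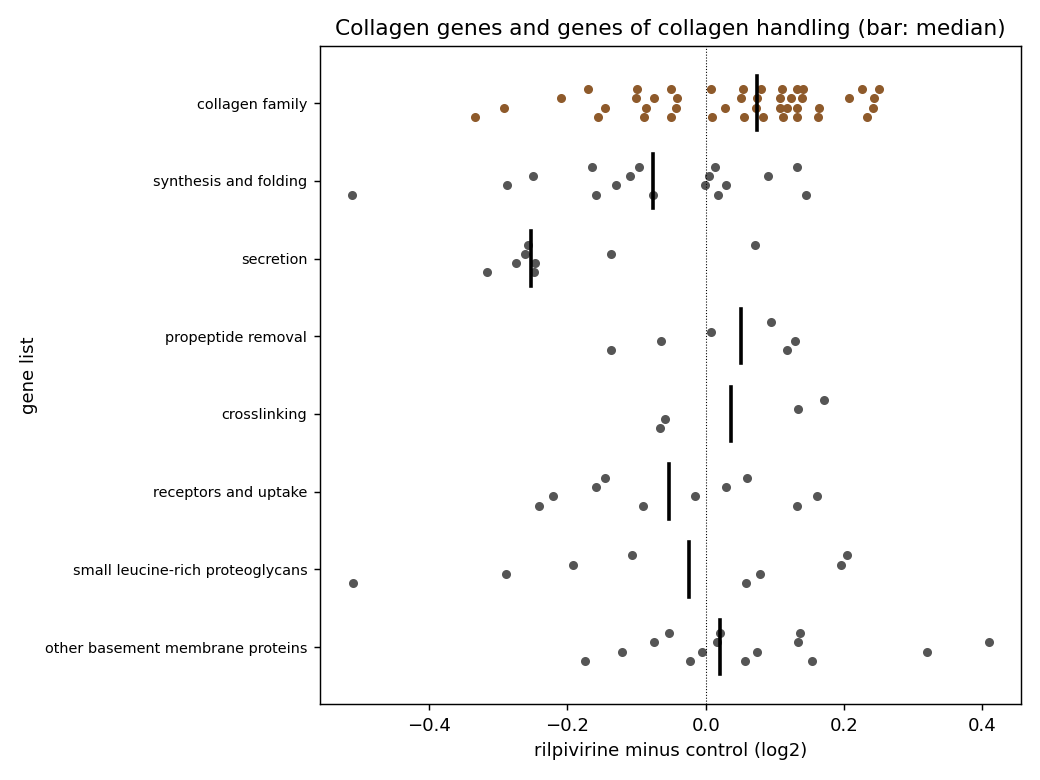
Difference between rilpivirine and control (log2, horizontal axis) for the 44 collagen genes (brown) and the 68 tested genes of collagen handling (grey), by gene list, with a bar at each median. The medians run from -0.25 for secretion (export) to 0.07 for the collagen family.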

How the data were processed

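The deposited table holds 41345 probe sets by 8 arrays in log2 units. RMA (background correction, quantile normalization and summary of probes) and limma are named in the submitters' processing notes, with no versions given. RMA removes differences in total signal between arrays. Of the probe sets, 23521 had 1 platform gene symbol, 1814 several and 16010 none listed; for each symbol the probe set with the highest mean was kept. Of 22180 genes, 5545 fell below the 25th percentile of gene means (2.72 log2) and were dropped. Differences between rilpivirine and control were fitted over the other 16635 with limma 3.58.1 (lmFit, eBayes; R version 4.3.3), without covariates, two-sided, with Benjamini-Hochberg adjustment at 0.05. The test was tested on simulated data with known changes. The 8 arrays limit the precision. Collagen members, classes, partner lists and chain pairs were chosen with earlier results of these data known. Named genes were, per class, the 4 with the highest mean, those with an unadjusted p under 0.05 or groups that did not overlap, the 3 largest differences in each direction, the paired chains and a fixed set; per partner list, the 2 with the highest mean and those with an unadjusted p under 0.05. Of 79 listed partner genes 73 were measured, and the other 6 are not analysed here. Scaling by array median or a further quantile normalization moved the median of all genes by at most 0.023 log2. Correlations used Python 3.11.15 and figures matplotlib 3.10.9.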

Additional observations from a re-analysis of the deposited data

Results flagged for a closer look

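Among 88 groups of 4 samples of the named genes, 3 had a sample whose gap to its neighbour was large against the range of its group (above Dixon's critical value), where chance gives about 1 in 20 groups. Bgn measured 10.69 in rilpivirine replicate 4, against 10.16 to 10.23 in the other rilpivirine samples. Col6a5 measured 3.42 in control replicate 3, against 3.37 in each of the other controls, and Col6a6 measured 4.37 in control replicate 4, against 4.30 in each of the other controls.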

How the results depend on the processing

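Under 17 alternatives (moderation, weights, scaling, filter, probe sets, replicate block, samples left out) limma called 0 genes after adjustment. Of 740 comparisons of a gene's difference with an alternative, 680 kept their sign and 60 turned it; the cause was not tested. Samples with one replicate number had correlations of their deviations of -0.25, 0.46, -0.09 and 0.07, which cannot settle whether the numbers pair the samples. With the replicate block 0 collagens passed either p threshold, with a family median of 0.07. Over all genes tested, 1071 had a limma unadjusted p under 0.05 with the block and 867 without it. The smallest limma adjusted p was 0.230 with the block and 0.595 without it. Without rilpivirine replicates 1 and 2 together, medians were -0.0338 for the family, -0.0676 for other collagens, 0.10 for export, -0.0292 for propeptide removal and 0.12 for proteoglycans, and signs turned for Col4a2 (-0.0236), Col4a3 (-0.22), Col4a4 (-0.0422), Col5a2 (0.089), Col8a2 (-0.000351), Col23a1 (-0.037), Serpinh1 (-0.11), Mia2 (0.16), Sar1b (0.16), Bmp1 (-0.0297), Loxl1 (0.25), Loxl3 (-0.0598), Itga1 (0.0782), Itgb1 (0.24) and Dcn (0.12). Array weights turned Col4a3 (-0.0107), Col6a1 (0.0124), Loxl1 (0.0613) and Itga1 (0.0107). Centring turned Col1a1 (-0.00684), Col4a3 (-0.00545) and Serpinh1 (-0.000221). A further quantile normalization turned Col6a1 (0.0331) and Itga1 (0.0645) and gave r = 0.83 for Col1a1 and Col3a1. The mean of probe sets turned Col5a1 (-0.16), and a filter at the 50th percentile gave a proteoglycan median of -0.15. With each sample left out in turn, differences ran from 0.00452 to 0.23 for Col4a2, -0.17 to 0.23 for Col1a1, -0.10 to 0.27 for Col3a1, -0.0358 to 0.25 for Col4a1, -0.0707 to 0.0927 for Col4a3, -0.10 to 0.15 for Col4a4, -0.15 to 0.0556 for Col4a6, -0.0163 to 0.15 for Col5a1, -0.16 to 0.0526 for Col6a1, -0.0938 to 0.0156 for Col6a6, -0.0272 to 0.12 for Col14a1, -0.18 to 0.0357 for Col18a1, -0.0654 to 0.0981 for Serpinh1, -0.12 to 0.00683 for Pcolce, -0.26 to 0.0664 for Loxl1, -0.0139 to 0.25 for Loxl3, -0.19 to 0.0766 for Ddr1, -0.0549 to 0.0405 for Itga1, -0.21 to 0.0169 for Dcn and -0.0471 to 0.13 for Bgn. Medians ran from -0.0163 to 0.0937 for fibrillar, -0.028 to 0.0765 for beaded and -0.0112 to 0.14 for other collagens, -0.12 to 0.011 for synthesis and folding, -0.0252 to 0.10 for crosslinking, -0.00766 to 0.0851 for other basement membrane proteins, -0.0073 to 0.0753 for propeptide removal and -0.13 to 0.0535 for proteoglycans. Correlations ran from 0.84 to 0.95 for Col1a1 and Col3a1, 0.76 to 0.87 for Col1a1 and Col1a2, 0.083 to 0.96 for Col5a1 and Col5a2, 0.0785 to 0.82 for Col6a1 and Col6a2 and -0.59 to 0.0332 for Col8a1 and Col8a2. With group means subtracted, r was 0.86 for Col1a1 and Col1a2 (permutation test adjusted p = 0.0303, which is not exact in this setting). Without the samples farthest from the median of the first gene, r was 0.93 for Col5a1 and Col5a2. Alternatives for partner genes, and the scalings and left-out samples for correlations, were chosen after seeing the data. No background signal is known for dim members.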
